A study of Mus musculus with 6 samples.

Results

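Axon guidance ligands and receptors were followed in the rostral forebrain of mouse embryos from embryonic day 9.5 (E9.5) to E10.5 and then E12.5, in wild type and in embryos lacking both Fezf1 and Fezf2, which encode zinc-finger transcription factors. The genes were taken by symbol from the array's annotation: Eph receptors, ephrins, semaphorins of classes 3 to 7, plexins, neuropilins, Robo receptors, Slits, netrins, Dcc and the Unc5 receptors. This gave 68 genes of 18194 named by a single symbol, and each was read from its brightest probe set. Each age had a wild-type and a Fezf1-/- Fezf2-/- group (called the knockout), and each of these 6 groups was measured on 1 Affymetrix array. The dissected tissue reached back to where the lateral ventricles end. The labels do not give the number or sex of the embryos behind an array, nor the strain background. No group had a replicate, so a genotype difference seen at just 1 age cannot be set against a spread. Where 3 signals follow each other for a genotype, they are those of the youngest, the middle and the oldest stage, in that order.

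Growing axons steer by cues that attract or repel them. Netrin-1 acts through Dcc as an attractant and through Unc5 receptors as a repellent, Slits repel through Robo receptors, secreted class 3 semaphorins bind neuropilins that signal with plexins, and membrane-bound ephrins act on Eph receptors of neighbouring cells. Many of these proteins also work outside axons: class 3 semaphorins guide neural crest, Plxnd1, Unc5b, Robo4 and Ephb4 are known from blood vessels, and Eph receptors and ephrins keep cell populations apart in the early neural tube. In the forebrain of these ages the first neurons are born and the first axon tracts are laid down.

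The targeted genes were lower in every knockout array: Fezf2 read 0.458, 0.904 and 1.66 there against 78.9, 146 and 249 in wild type, and Fezf1 read 97.7, 78.4 and 49.5 against 251, 143 and 174. Whether their probe sets lie in the deleted stretches is not given in the labels. Of 7 forebrain markers, the 6 tested read at least 133 in every array, and Rax read 2.60 and 2.63 at E12.5. At E9.5 all 6 tested were lower in the knockout (median -0.19), and 5 of 6 with the values as deposited. The median deposited signal of an array ran from 14.2 to 37.1, so the arrays were brought to one distribution by quantile normalization, and signals below are these normalized values. Differences are in log2(signal + 6.50), where 1 means 2-fold and the fold of a dim gene is understated. Of the 68 guidance genes, 52 lay above the filter on dim genes (mean log2 value above the median of all probe sets) and were tested, and 16 did not and are described only. A signal is compared between arrays for one gene, never between genes.

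The clearest pattern was developmental. From E9.5 to E12.5, 24 of the 52 tested guidance genes rose and 17 fell in the mean of both genotypes (limma adjusted p under 0.05), and 11 did not pass. In percent, 46.2 rose and 32.7 fell, beside 25.9% rising and 36.9% falling among all 11091 tested genes. The median change was 0.37 for the guidance genes and -0.14 for all tested genes. In these bulk samples fewer cells of a type and less RNA per cell cannot be told apart. The 41 genes that passed moved in the same direction in wild type and knockout. The age test counts a gap between the genotypes as error, so its selection favours genes with such agreement. The balance of rises and falls depends on how the arrays are scaled. With the values as deposited 32 of 52 rose and 6 fell, where 49.2% of all tested genes rose and 15% fell (median 0.40). With a common trimmed mean 27 of 52 rose and 11 fell, where 29.9% of all tested genes rose and 31.2% fell (median -0.02). Under all 3 scalings 23 genes rose and 6 fell (Efna2, Ephb3, Plxnd1, Sema3d, Sema3f and Unc5b), and none passed in opposite directions.

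The promoters of 4 genes are shown because these genes had the largest rises (Epha5 and Epha3) and falls (Sema3d and Ephb3) that held under all 3 scalings, among genes with a single promoter in the RefSeq table of GRCm38.p6; that of Dcc is not shown. Each runs 5′ to 3′ on the gene's strand, from 250 bases before to 50 after the annotated start: Epha5 at chr5:84417333-84417632 (minus strand), Epha3 at chr16:63864126-63864425 (minus strand), Sema3d at chr5:12382916-12383215 (plus strand) and Ephb3 at chr16:21204545-21204844 (plus strand). Capitals mark 4 short motifs searched on both strands: the E-boxes CAGCTG and CAGATG, the GC box GGGCGG and the TATA box TATAAA.
Epha5: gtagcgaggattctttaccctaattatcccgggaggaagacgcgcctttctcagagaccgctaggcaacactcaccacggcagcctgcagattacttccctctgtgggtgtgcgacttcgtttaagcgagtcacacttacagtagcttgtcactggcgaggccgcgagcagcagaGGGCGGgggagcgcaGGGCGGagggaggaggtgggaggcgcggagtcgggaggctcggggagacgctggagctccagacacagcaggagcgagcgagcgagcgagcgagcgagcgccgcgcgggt
Epha3: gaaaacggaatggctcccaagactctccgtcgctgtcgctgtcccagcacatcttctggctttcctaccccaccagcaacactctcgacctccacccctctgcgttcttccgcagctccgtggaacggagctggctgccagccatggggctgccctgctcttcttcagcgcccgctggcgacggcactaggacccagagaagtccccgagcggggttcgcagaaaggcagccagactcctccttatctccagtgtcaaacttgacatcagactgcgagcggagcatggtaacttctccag
Sema3d: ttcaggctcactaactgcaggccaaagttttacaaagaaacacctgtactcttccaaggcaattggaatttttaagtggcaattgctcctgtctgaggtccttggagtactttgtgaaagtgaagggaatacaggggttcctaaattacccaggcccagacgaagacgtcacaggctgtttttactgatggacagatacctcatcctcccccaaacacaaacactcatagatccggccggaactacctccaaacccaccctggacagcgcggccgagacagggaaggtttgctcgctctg
Ephb3: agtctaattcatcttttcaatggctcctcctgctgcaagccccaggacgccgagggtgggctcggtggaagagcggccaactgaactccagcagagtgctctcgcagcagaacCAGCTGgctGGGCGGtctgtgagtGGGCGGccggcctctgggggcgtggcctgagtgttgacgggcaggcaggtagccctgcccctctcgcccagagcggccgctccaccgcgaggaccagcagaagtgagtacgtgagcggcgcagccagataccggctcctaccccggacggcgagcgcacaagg

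The Epha5 and Ephb3 promoters each held 2 GC boxes, Ephb3 also held 1 CAGCTG, and none of the 4 motifs occurred in the Epha3 or Sema3d window. CG dinucleotides numbered 30 in Epha5, 18 in Epha3, 8 in Sema3d and 23 in Ephb3. A promoter was listed for 58 of the 68 genes. A GC box was found in 74.1% of these and in 35.7% of all 32851 promoters of the table, and the median number of CG dinucleotides was 21.5 against 7. Guidance genes count with 1 promoter each, while the table's share takes in every listed promoter and is not limited to tested genes. These and the following shares are therefore of unlike sets. CAGCTG was found in 15.5% against 16.3%, CAGATG in 6.9% against 17.2% and TATAAA in 3.45% against 13.6%. A GC box was found in 15 of 20 rising and 10 of 15 falling genes, and CAGCTG in 2 of each; the difference was not tested. A match is a description of letters in this window and not a binding site.

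**Figure D1:**
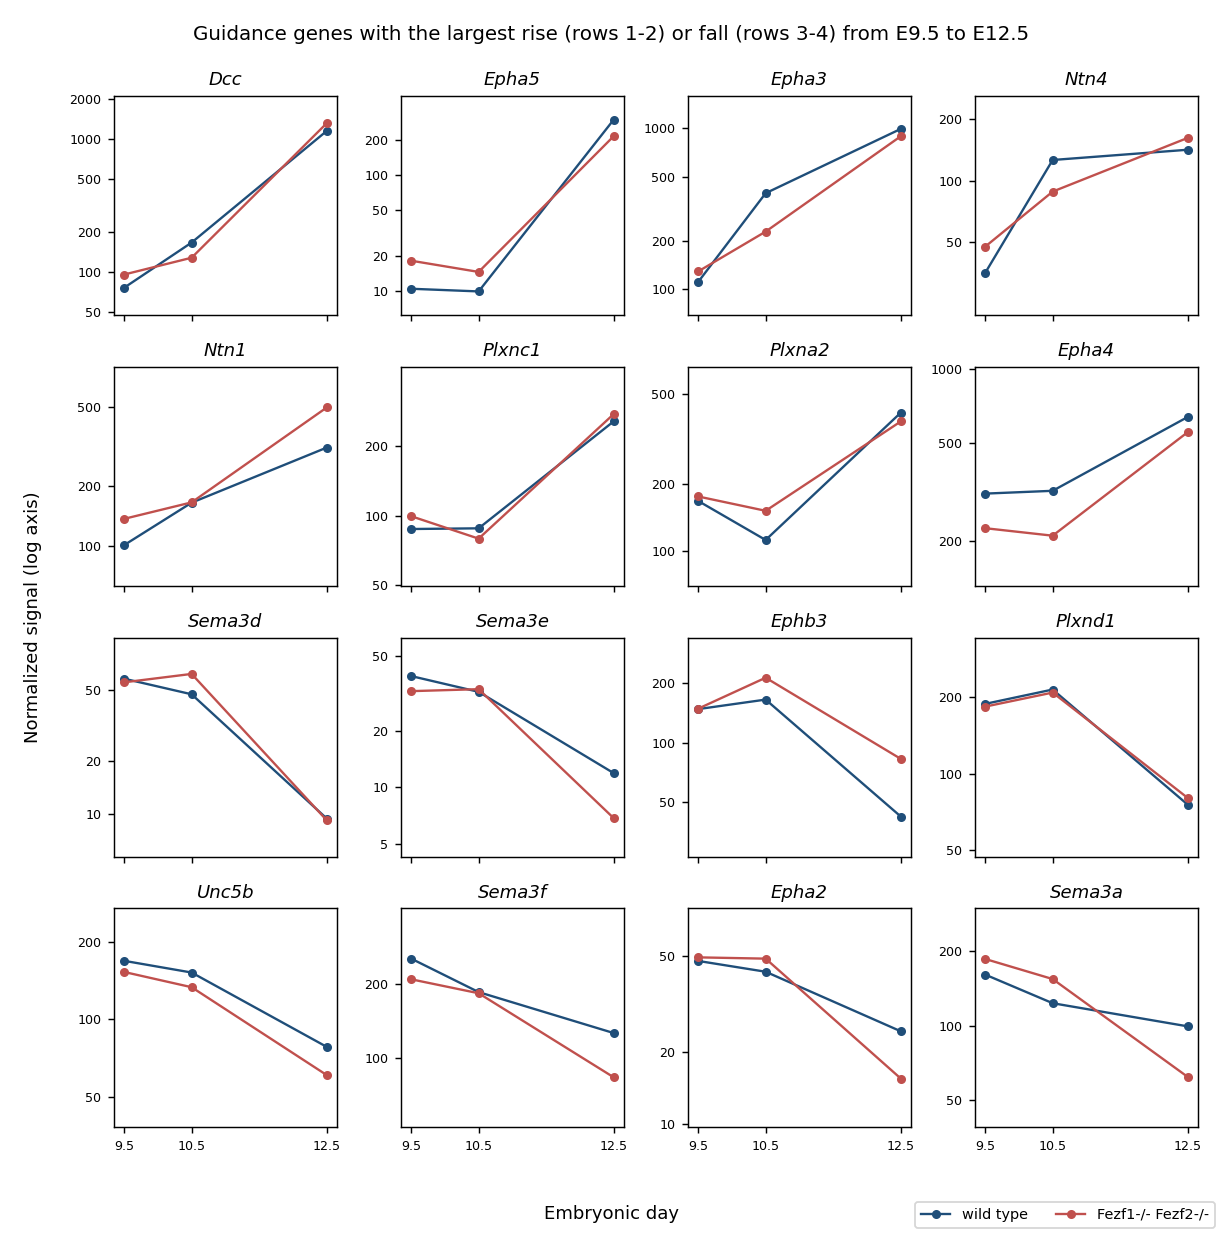
Normalized signal (log axis, with its own range in each panel) against embryonic day for the 8 guidance genes with the largest rise (rows 1 and 2) and the 8 with the largest fall (rows 3 and 4) among those passing the test from E9.5 to E12.5; each point is 1 array, blue for wild type and red for Fezf1-/- Fezf2-/-. Dcc climbs from 75.8 to 1145 in wild type, and from 95.4 to 1309 in the knockout, mostly after E10.5, while Plxnd1 drops from 188 to 75.6 and from 184 to 80.3.

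Both tested netrins and the attractant receptor Dcc rose. Dcc signal was 75.8, 166 and 1145 in wild type against 95.4, 128 and 1309 in the knockout. Both E12.5 arrays lay far above all 4 earlier arrays, a rise of 3.75 ± 0.16 (limma's moderated SE, here and below for changes over both genotypes; adjusted p = 3.97e-07), or 13.4-fold. Its second probe set rose by 3.61. The larger part came after E10.5, 3.02 of the change against 0.73 before.

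Ntn1, the netrin ligand of Dcc, read 101, 165 and 311 in wild type against 137, 165 and 495 in the knockout. It rose by 1.69 ± 0.16 (limma adjusted p = 2.07e-05), but its second probe set, with signals no higher than 14.2, changed by -0.47. Ntn4, a basement-membrane netrin, read 35.5, 126 and 142 in wild type against 47.7, 88.5 and 162 in the knockout, and rose by 1.73 ± 0.22 (limma adjusted p = 1.05e-04). The Ntn4 change was 1.24 before and 0.49 after E10.5, but 0.88 and 1.51 with the values as deposited. Ntn3 and Ntn5 were too dim to test, with no signal above 13.6.

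Of the repellent netrin receptors, Unc5b fell. It read 169, 152 and 78.1 in wild type against 153, 133 and 60.6 in the knockout, a change of -1.15 ± 0.15 (limma adjusted p = 1.28e-04), and its second probe set changed by -0.75. Both E12.5 arrays were below all earlier ones, but not with the values as deposited, where the mean change after E10.5 was 0.06. Unc5c fell by 0.61 with quantile normalization only (limma adjusted p = 0.024; the change was 0.12 with the values as deposited), and its second probe set changed by 0.00. Unc5d, expressed in young cortical neurons, was not tested and read 7.50, 7.14 and 24.4 in wild type against 4.71, 6.91 and 24.8 in the knockout.

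Eph receptors moved in both directions. Epha3, Epha4, Epha5 and Ephb1 rose, Epha2, Epha7 and Ephb3 fell, and Ephb6 did not pass. Epha5 was dim at E9.5 and E10.5, with 10.4 and 9.84 in wild type against 18.2 and 14.5 in the knockout, and stood at 304 and 218 at E12.5. This was a rise of 3.69 ± 0.29 (limma adjusted p = 5.66e-06), all of it after E10.5 (3.83, against -0.14 before), and its second probe set rose by 3.31.

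Epha3 read 111, 395 and 989 in wild type against 129, 228 and 890 in the knockout, so that every later array exceeded every earlier one. It rose by 2.91 ± 0.19 (limma adjusted p = 2.64e-06), 1.28 of it by E10.5, and its second probe set rose by 2.06. Epha4, a receptor for both ephrin classes, stood at like signals at E9.5 and E10.5 (311 and 320 in wild type, 225 and 210 in the knockout) and reached 639 and 554 at E12.5, a rise of 1.15 ± 0.12 (limma adjusted p = 3.64e-05).

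Ephb3 stood at 148, 166 and 42.0 in wild type against 149, 214 and 82.6 in the knockout. From E9.5 to E12.5 it fell by 1.24 ± 0.20 on the log2 scale (limma adjusted p = 5.73e-04). The Ephb3 change was 0.33 before and -1.57 after E10.5, and -0.01 and -0.53 with the values as deposited. Ephb1 rose, with 128, 113 and 214 in wild type against 133, 109 and 321 in the knockout (0.98 ± 0.17). Epha2, known from non-neural epithelia, read 47.9, 43.2 and 24.4 in wild type against 49.6, 49.0 and 15.5 in the knockout. Its change was -1.09 ± 0.26 (limma adjusted p = 0.0053), and -0.47 with the values as deposited (limma adjusted p = 0.156). Epha7 changed by -0.45 with quantile normalization and by 0.15 with the values as deposited.

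All 3 ephrin-B ligands, the transmembrane ephrins, rose by near 2-fold: Efnb1 by 1.06, Efnb2 by 1.08 and Efnb3 by 0.998. Efnb1 is X-linked, and Xist, which coats the inactive X, read 725 in wild type and 453 in the knockout at E9.5 but 9.87 and 17.7 at E12.5; its part in the Efnb1 and Plxna3 changes was not tested. Efnb2, which also marks arteries, read 447, 557 and 965 in wild type against 423, 662 and 886 in the knockout (limma adjusted p = 2.89e-05), and its second probe set rose by 1.17. Of the 5 ephrin-A ligands, which are held on the membrane by a lipid anchor, 2 fell and 3 did not pass. Efna2 fell from 638 through 512 to 387 in wild type, and from 694 through 572 to 412 in the knockout (-0.73 ± 0.09; limma adjusted p = 1.18e-04), although its dimmer second probe set changed by -0.15. Its whole fall came before E10.5 with the values as deposited (-0.75, then 0.40). Efna5 changed by -0.63 with quantile normalization and by -0.09 with the values as deposited. Efna1 read 31.3, 72.5 and 37.04 in wild type against 29.5, 71.8 and 28.3 in the knockout, highest at E10.5. Its mean change after E10.5 was -1.02, but 0.04 with the values as deposited.

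Most tested class 3 semaphorins, which are secreted, fell, and the membrane-bound classes moved mainly the other way. Of 6 tested class 3 genes, 4 fell (Sema3a, Sema3d, Sema3e and Sema3f), Sema3c rose and Sema3g did not pass, with a median change of -1.097. Of 12 tested genes of classes 4 to 7, 6 rose, 2 fell and 4 did not pass, with a median of 0.63. With the values as deposited only Sema3d and Sema3f of class 3 still fell. Whether the classes differ was not tested. Sema3d read 57.8, 47.2 and 9.44 in wild type against 55.1, 61.5 and 9.23 in the knockout, a change of -1.99 ± 0.26 (limma adjusted p = 1.16e-04). Its second probe set, no brighter than 16.4, changed by -0.09.

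Sema3e read 39.0, 32.2 and 11.9 in wild type against 32.4, 33.2 and 6.85 in the knockout (-1.43 ± 0.29; limma adjusted p = 0.00221), and lay under the dim filter with the other scalings. Sema3f, a ligand of Nrp2, read 253, 185 and 126 in wild type against 208, 183 and 83.0 in the knockout (-1.12 ± 0.16; limma adjusted p = 2.2e-04), but its second probe set changed by -0.01. Sema3a, a ligand of Nrp1, read 161, 123 and 99.4 in wild type against 186, 154 and 62.0 in the knockout (-1.08 ± 0.22; limma adjusted p = 0.00211). With the values as deposited the Sema3a change was -0.41 (limma adjusted p = 0.103), and its second probe set changed by -0.95. Among membrane-bound members, Sema6d rose by 0.83, Sema4g by 1.11, Sema7a by 0.73 and Sema5a by 0.69. Second probe sets changed by only 0.14 for Sema6d, 0.08 for Sema7a and 0.13 for Sema5a, those of Sema6d and Sema7a being dim, and Sema4g had none. Sema4c read 242, 187 and 204 in wild type against 286, 199 and 185 in the knockout, a change of -0.42 that became 0.11 with the values as deposited.

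Their receptors, the plexins, mostly rose: 5 of 8 tested plexins (Plxna2, Plxna3, Plxnb1, Plxnb2 and Plxnc1), while Plxna1 and Plxnd1 fell and Plxna4 did not pass. Plxnc1, a receptor for Sema7a, read 87.5, 88.1 and 256 in wild type against 99.4, 79.5 and 275 in the knockout, a rise of 1.45 ± 0.15 (limma adjusted p = 3.25e-05). Plxna2, a partner of neuropilins, read 167, 112 and 414 in wild type against 175, 151 and 378 in the knockout (1.18 ± 0.15; limma adjusted p = 1.12e-04), and its second probe set rose by 1.78. Both genes were flat or lower at E10.5 and high only in the E12.5 arrays. Plxnb2 rose from 300 through 364 to 511 in wild type, and from 307 through 395 to 502 in the knockout (0.73 ± 0.10), with a first step of 0.32 that was -0.08 with the values as deposited.

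Plxnd1 read 188, 215 and 75.6 in wild type against 184, 209 and 80.3 in the knockout, with a change of -1.19 ± 0.14 (limma adjusted p = 5.96e-05) and differences of at most 0.08 between the genotypes. Plxna1 changed by -0.36 and by 0.23 with the values as deposited. Nrp2 rose by 1.11 ± 0.16 and Nrp1 fell by 0.68 ± 0.13, but the second probe set of Nrp2 changed by -0.45 and that of Nrp1 by 0.13. Nrp1 was lowest at E10.5 in both genotypes, with 340, 129 and 216 in wild type against 290, 115 and 173 in the knockout.

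Of the Robo and Slit genes only Robo1, Robo4 and Slit2 passed the filter on dim genes. Robo1 read 392, 289 and 448 in wild type against 494, 344 and 678 in the knockout and rose by 0.32 (limma adjusted p = 0.0332), which did not pass with a common trimmed mean. Robo4, a vessel-associated receptor, changed by -0.74 and by -0.08 with the values as deposited. Slit2 read 401, 350 and 389 in wild type against 404, 445 and 306 in the knockout and did not pass (-0.22; limma adjusted p = 0.232). Of the 16 untested genes, 6 were at least 2-fold higher at E12.5 in both genotypes (Robo2, Robo3, Slit1, Plxnb3, Sema6b and Unc5d) and 2 at least 2-fold lower (Epha1 and Slit3); Robo2, Robo3 and Slit1 were picked for description after their values had been seen. Robo2 read 8.003, 8.31 and 96.3 in wild type against 5.67, 14.2 and 54.2 in the knockout. Robo3 read 3.14, 7.20 and 61.2 and 4.55, 14.96 and 64.2, and Slit1 read 7.17, 17.8 and 82.9 and 9.05, 11.7 and 60.8. The second probe set of Robo3 went the other way, by -0.78 (27.5, 10.7 and 7.98 in wild type), and that of Slit1 rose by 0.77. Slit1 was above the filter and rose with both other scalings. In 5 of the untested genes no array exceeded 24.0, the median of all values.

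Of the 24 rising genes, 22 changed more between E10.5 and E12.5 than between E9.5 and E10.5, as did 10 of the 17 falling genes. This held for 30 of 32 rising and 3 of 6 falling genes with the values as deposited, and with a common trimmed mean for 23 of 27 and 9 of 11. The interval from E10.5 to E12.5 is also the longer one. The share among all rising or falling genes was not counted, so whether these counts are particular to guidance genes is not known. A second probe set was available for 32 of the 41 genes that passed, and in 24 of them it moved the same way. The 8 others were Nrp1, Nrp2, Ntn1, Plxna1, Sema4d, Sema4f, Sema6a and Unc5c. Direction was read from the sign alone, so Sema3f, with -0.01 in its second probe set, is among the 24. The share over all genes was not counted here either.

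**Figure D2:**
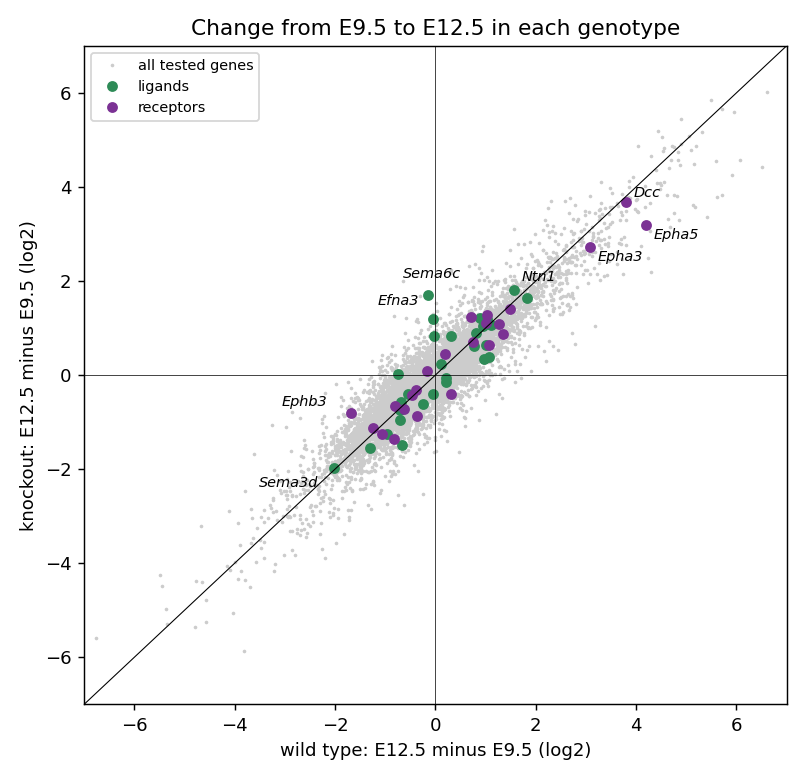
Change from E9.5 to E12.5 on the log2 scale in wild type (horizontal) against the same change in the knockout (vertical), with 1 array per genotype and age; grey points are all 11091 tested genes, large points the 52 tested guidance genes (ligands green, receptors purple), and the diagonal marks equal change. Dcc, Epha5 and Epha3 lie at the upper right (3.81, 4.20 and 3.09 in wild type), and Sema6c and Efna3 lie off the diagonal, with a change of -0.14 and -0.04 in wild type against 1.71 and 1.19 in the knockout.

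Markers of cell types moved over the same interval, and their part in these changes was not tested. All 12 early neuron markers rose, and their summed signal went from 626 to 18110 in wild type, and from 755 to 18350 in the knockout. Of 8 surface ectoderm markers 7 fell, with sums of 1434 and 154 in wild type against 1674 and 137 in the knockout. At E12.5, 6 of the 8 in wild type, and 7 in the knockout, were below the median signal of 24.0, with Cdh1 at 9.51 and 11.7. Of 14 tested head mesenchyme markers 11 fell, and 2 rose (Col1a1 by 2.17 and Dcn by 1.96). Sums over all 15 listed were 4457 and 2748 in wild type against 5976 and 1842 in the knockout, and Twist1 ended at 18.6 and 8.29. Of 9 endothelial markers 3 fell and 1 rose, but 1 fell and 3 rose with the values as deposited, with sums from 612 to 1029 over the arrays. Of 5 erythroid markers 4 fell, with sums from 13940 to 27710, and of 3 tested macrophage markers 2 rose. Signals summed over all 6 listed macrophage markers, tested or not, ran from 124 to 299.

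Other genes of the guidance pathways, from a list of adhesion molecules, co-receptors and cytoplasmic effectors, moved mainly upward: 38 of 58 tested rose, 8 fell and 12 did not pass, with a median change of 0.91. With the values as deposited 44 rose and 4 fell, where 49.2% of all tested genes rose and 15% fell. With a common trimmed mean it was 41 and 8, where 29.9% and 31.2% did. The largest rises were in genes of young axons: Islr2 (5.77; 2.78 to 568 in wild type), the adhesion molecules Cntn2 (4.46) and Chl1 (4.10), and Cdk5r1, the neuronal activator of Cdk5 (3.32). Among the falls were Plxdc2 (-1.35), the actin-binding protein gene Ablim1 (-1.21), and Dock1, a Rac activator (-0.95), which kept a negative change under the other 2 scalings (from -0.41 to -1.05).

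The second comparison asked whether loss of Fezf1 and Fezf2 shifted guidance genes in the same way at all 3 ages. Of the 52 tested guidance genes 0 passed (limma adjusted p under 0.05 over all genes), where 0.0721% of all tested genes passed. At an unadjusted limma p under 0.05 stood 4 guidance genes, Epha4, Robo1, Ntn1 and Ephb3, which is 7.69% beside 4.61% of all tested genes. The smallest adjusted p of a guidance gene was 0.71.

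**Figure D3:**
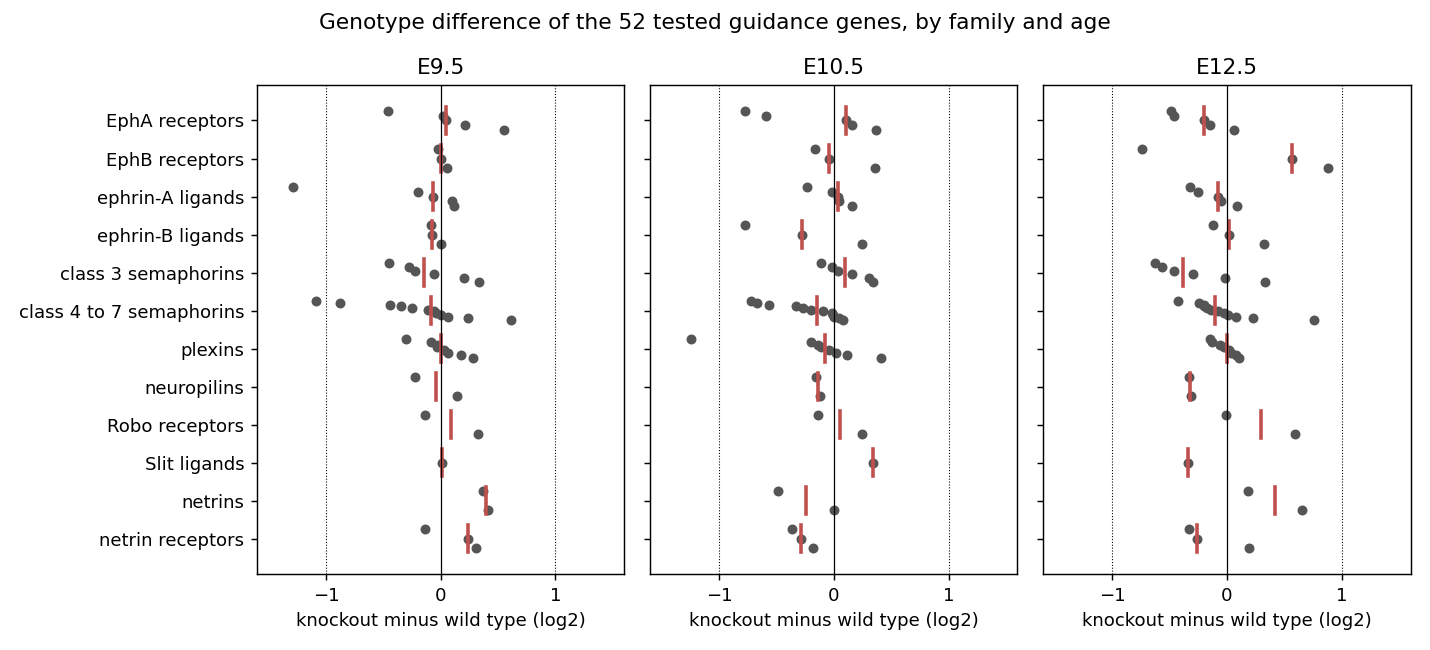
Knockout minus wild type on the log2 scale for each of the 52 tested guidance genes (points), by family and in a panel for each age, from 1 array per genotype and age; red bars are family medians and dotted lines mark a 2-fold difference. Most points lie within the dotted lines, and those beyond are Efna3 and Sema6c at E9.5 (-1.29 and -1.09) and Plxna4 at E10.5 (-1.24).

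Robo1, the Slit receptor, had the smallest unadjusted p among guidance genes higher in the knockout. Its signal was 494 in the knockout against 392 in wild type at E9.5, 344 against 289 at E10.5 and 678 against 448 at E12.5. The knockout array was the higher at each age, by 0.33, 0.24 and 0.59 (mean 0.39 ± 0.09, limma's moderated SE; adjusted p = 0.71), and under the other scalings too. Its second probe set, no brighter than 42.5, gave 0.29, -0.07 and -0.10.

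Epha4 had the smallest among those lower in the knockout, with 225 against 311, 210 against 320 and 554 against 639. Its differences were -0.46, -0.59 and -0.20 (mean -0.42 ± 0.10; limma adjusted p = 0.71), with -0.28, -0.20 and -0.06 in the second probe set. The values as deposited gave 0.04 at E12.5.

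Ntn1 and Ephb3 differed most at E12.5. Ntn1 read 137 against 101, 165 against 165 and 495 against 311, or 0.42, 0.00 and 0.66 (mean 0.36 ± 0.13; limma adjusted p = 0.999), with -0.01 at E10.5 under a common trimmed mean. Ephb3 read 149 against 148, 214 against 166 and 82.6 against 42.0, or 0.01, 0.36 and 0.88 (mean 0.41 ± 0.17; limma adjusted p = 0.999). Between E9.5 and E12.5 the Ephb3 change was -0.80 in the knockout and -1.67 in wild type, a difference that was not tested. Markers of caudal diencephalon and midbrain stood higher in the knockout at E12.5, 9 of 9 tested markers with a median of 1.47. Summed over all 12 listed, tested or not, they read 2831 against 1118. Their part in the E12.5 values of Ntn1, Ephb3 and Robo1 was not tested.

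Further genes lay on one side at all ages. Efna2 (0.12, 0.16 and 0.09) and Epha7 (0.02, 0.10 and 0.06) were higher in the knockout. Nrp1 (-0.22, -0.16 and -0.31), Unc5b (-0.14, -0.18 and -0.33) and Sema4f (-0.25, -0.72 and -0.17) were lower. With the values as deposited the E10.5 difference was 0.10 for Nrp1 and 0.09 for Unc5b. In all, 5 tested guidance genes (9.62%) were higher at all 3 ages, beside 13.1% of all tested genes, and 14 (26.9%) were lower, beside 11.5%. These shares were not tested. With a common trimmed mean they were 5.77% beside 12.3% and 28.8% beside 13.1%, and with the values as deposited 28.8% beside 49.9% and 3.85% beside 1.96%.

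**Figure D4:**
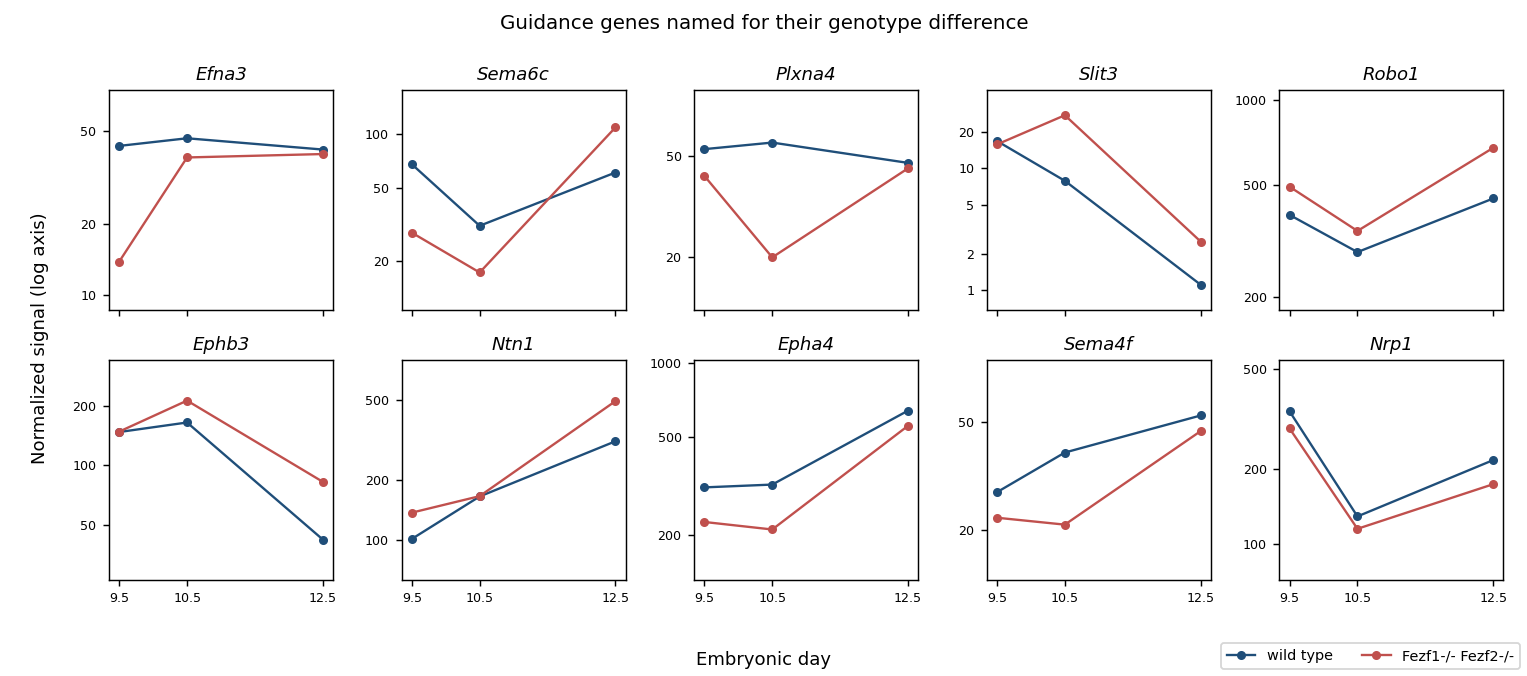
Normalized signal (log axis, with its own range in each panel) against embryonic day for guidance genes named for their genotype difference; each point is 1 array, blue for wild type and red for Fezf1-/- Fezf2-/-. Robo1 lies higher and Epha4 lower in the knockout at every age, while Efna3 is apart at E9.5 alone (13.8 against 43.0) and Plxna4 mainly at E10.5 (19.99 against 56.2).

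Differences of at least 2-fold at a single age, with the brighter signal above 24.0, were few. At E9.5 there were 2 of 68 guidance genes (2.94%, beside 1.62% of all genes), both lower in the knockout. Efna3, an ephrin-A ligand, had a signal of 13.8 in the knockout and 43.0 in wild type (-1.29), and 38.4 against 46.4 and 39.7 against 41.5 at the later ages. Its dim second probe set was lower at all 3 ages (-0.54, -0.75 and -0.82). Sema6c, a transmembrane semaphorin, read 28.5 against 68.0 (-1.09), 17.2 against 31.1 (-0.67) and then 108 against 61.2 (0.76). The Sema6c second probe set, no brighter than 21.3, gave -0.11, -1.83 and -1.41.

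At E10.5 there were again 2 (2.94%, beside 1.92% of all genes). Plxna4, the plexin that carries Sema3a signals in neurons, read 19.99 in the knockout and 56.2 in wild type (-1.24), 41.6 against 53.0 at E9.5 and 44.6 against 46.8 at E12.5. Its second probe set, no brighter than 15.1, gave 0.12, 0.46 and -1.33. Slit3 read 27.4 against 7.92 (1.23) and was not tested for its low mean. Of the 52 tested genes 32 were lower in the knockout at this age (61.5%, beside 52.1% of all tested genes), and 16 with the values as deposited (30.8% beside 18.3%). Among the 32 were Epha3 (228 against 395, -0.77; second probe set -0.90), Efnb1 (124 against 217, -0.77) and Sema5b (44.0 against 68.3, -0.57). Early neuron markers were lower too, 11 of 12 with a median of -0.74 and sums of 1711 against 2879. So were 5 of 6 tested forebrain markers, with a median of -0.40 over the 6. Lhx2 (-1.06) and Emx2 (-1.08) were the lowest and Six3 (-0.22) the least so, while Otx2 was higher in the knockout (0.63, 649 against 416). With the values as deposited the early neuron and forebrain medians were -0.49 and -0.11, beside 0.26 for all tested genes. The part of these markers in the guidance genes' values was not tested. Efnb1, Plxna3 and Plxnb3 are X-linked, and Xist read 11.7 in the knockout and 573 in wild type at this age.

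At E12.5, 0 of 68 differed 2-fold, beside 0.555% of all genes. The widest gaps among tested genes, picked by size from these values, were Ephb3 (0.88), Sema6c (0.76), Ephb6 (-0.74; 18.7 against 35.6), Ntn1 (0.66), Sema3a (-0.63; 62.0 against 99.4), Robo1 (0.59), Ephb1 (0.57; 321 against 214) and Sema3f (-0.56; 83.0 against 126). Of the 6 tested class 3 semaphorins 5 were lower in the knockout, where 46.2% of all tested genes were lower. The class 3 median was -0.38 beside 0.02 for all tested genes. Sema3d had the narrowest gap of these 5 (-0.02), and with the values as deposited it was 0.11. Head mesenchyme markers were lower at this age as well, 13 of 14 with a median of -0.63, and their part was not tested.

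Genotype medians are given from the youngest to the oldest stage, first for families with at least 5 tested genes. EphA receptors (5 tested) stood at 0.04, 0.10 and -0.20, and ephrin-A ligands (5 tested) at -0.07, 0.04 and -0.07. Class 3 semaphorins (6 tested) stood at -0.14, 0.10 and -0.38, and class 4 to 7 semaphorins (12 tested) at -0.09, -0.15 and -0.10. The 8 tested plexins lay at -3e-04, -0.08 and -0.003. The median of the 3 tested EphB receptors was 0.01, -0.04 and 0.57, and at E12.5 they ran from -0.74 (Ephb6) to 0.88 (Ephb3). The 2 tested netrins stood at 0.39, -0.24 and 0.42. The median over the 52 genes was -0.01, -0.04 and -0.07, beside 0.01, -0.01 and 0.02 over all tested genes. Whether a genotype difference changed with age could not be tested with 1 array per group. Across the 41 genes that passed for age, the change in the knockout and in wild type differed by a median of 0.24 and at most 1.01 (Epha5, with 3.19 against 4.20). That test counts such a gap as error, so genes with wide gaps tend not to pass and these values are no measure of agreement. Sema6c (1.71 in the knockout against -0.14 in wild type) and Efna3 (1.19 against -0.04) did not pass.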

How the data were processed

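RNA of rostral forebrain from 6 groups (2 genotypes, 3 ages, 1 array each) was measured on Affymetrix mouse arrays. Deposited per probe set was a linear intensity from MAS5 (tool named in the submitters' processing notes); its scaling target is not given in the sources used here, nor are detection calls. From the 45101 probe sets, 34958 name 1 gene symbol, and all 68 guidance genes matched the RefSeq table of GRCm38.p6. Each gene takes its probe set with the highest mean of the deposited values. Values were quantile-normalized with limma, because array medians differed, and taken as log2(signal + 6.50), a pseudocount equal to the lower quartile of all deposited values.

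Genotype (age as a block) and age (E12.5 minus E9.5) were fitted with limma 3.58.1 in R 4.3.3 (eBayes with a trend) on all tested genes, leaving 2 residual degrees of freedom (9.4 after moderation), with Benjamini-Hochberg adjustment at 0.05. In the genotype fit, differences between ages in the genotype effect are part of the error. P-values measure only the spread between these arrays, and the number of arrays limits the precision. The fit was checked on simulated data whose planted changes were larger than any genotype difference of the guidance genes. The simulation held no shift between arrays, so neither small differences nor the scaling were checked. Members and lists were chosen with earlier results of these data known. Genes described array by array were those 2-fold different at an age, up to 8 per direction with the largest change among those passing for age, up to 5 per direction with one sign at all ages, and the member of each family with the highest mean signal. Alternatives were other scalings, pseudocounts, filters, probe sets and variance models, and leaving out an age. Steps between ages and counts by sign under the other scalings were added after seeing the data.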

Additional observations from a re-analysis of the deposited data

How the results depend on the processing

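The main limits are 1 array per group, dim probe sets without detection calls, and arrays that were not scaled when deposited. Under every alternative run, 0 guidance genes passed the genotype test. The number of all genes passing it, 8, was 2 with a common trimmed mean or the average over a gene's probe sets, 1 with a pseudocount of 1, without the dim filter and with the second-brightest probe set, and 0 without a variance trend, without the age block and without the E12.5 pair; it was 49 without the E9.5 pair and 3 without the E10.5 pair. Guidance genes that rose, 24, numbered 9 with the second-brightest probe set and 19 to 32 otherwise. Those that fell, 17, numbered 6 as deposited, 11 with a trimmed mean, 8 with probe sets averaged and 3 with the second-brightest. Among all genes 5448 rose and 1663 fell as deposited, and 1381 and 1549 with the second-brightest probe set, which fewer genes have. Guidance genes with a 2-fold genotype difference (2, 2 and 0 from the youngest to the oldest stage) numbered 1, 0 and 4 as deposited, 1 at E10.5 and 3 at E12.5 with a trimmed mean, 2 at E12.5 with a pseudocount of 1, 0 at the first 2 ages with a pseudocount of 32, 0 and 1 with a gene's probe sets averaged, 1 and 1 with the second-brightest, and 4, 7 and 9 at 1.5-fold. Reversed were Nrp1 with probe sets averaged (mean genotype difference 0.0012), and with the second-brightest probe set Unc5b (0.1476) and Plxna4 at E10.5 (0.4581); the cause was not tested. The genotype fit already pairs the arrays of an age. No paired analysis was possible because the labels give no replicate numbers to pair by, beyond age.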

Other observations

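The remaining untested guidance genes were dim. Ephb4, the venous receptor for ephrin-B2, read 8.1, 51.2 and 6.14 in wild type against 11.7, 50 and 21.8 in the knockout, so both genotypes were highest at E10.5. Sema3b, a secreted semaphorin, read 15.5, 13.7 and 20.6 against 1.27, 4.91 and 1.55, lower in the knockout at each stage but never above the median signal of 24.0. The Sema3b second probe set, no brighter than 15.5, gave -0.08, 0.53 and -1.09. Epha10 (2.94 to 30.7) and Unc5a (3.32 to 26.8) varied between arrays in no common direction across genotypes, and Epha6, Epha8, Ntn3 and Ntn5 stayed below 24.0 in every array. These genes were picked after their values were seen, and none was tested.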
